A study of Homo sapiens with 4 samples.

Results

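Asparagine, proline, alanine, aspartate, cysteine and arginine can be built by the cell from glutamate, glutamine, serine, homocysteine and citrulline, and 8 enzymes of these routes were followed at the mRNA level. They are ASNS for asparagine, ALDH18A1 and PYCR1 for proline, GOT1 and GPT2, which move the amino group of glutamate onto other carbon skeletons, CBS and CTH for cysteine, and ASS1, whose product leads to arginine. The genes were listed by name and chosen by their role together with their TPM changes between these same 4 libraries, so those changes are a description and not a test. All 8 symbols matched 1 Ensembl identifier each among the 60671 gene identifiers in the data.

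RNA-seq covered 22RV1 and PC3, both established human prostate carcinoma cell lines, each carrying a lentiviral control hairpin (shCON) or a hairpin against the RNA helicase DDX52 (shDDX52). Stable cells were selected with puromycin, and 1 hairpin sequence was used for each purpose. Each of the 4 conditions (22RV1 shCON, 22RV1 shDDX52, PC3 shCON and PC3 shDDX52) was 1 library, so the spread between cultures of a condition is not known, and no test was run. Whether the cells were pools or clones is not stated in the sources used here. Levels are given as TPM, a length-corrected share of each library that keeps no depth, so the reads behind a value and its precision are unknown. In such bulk RNA, fewer cells with an mRNA and less of it per cell cannot be told apart.

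Several of the enzymes are known to be linked by the amino acid response. When amino acids run short or unfolded protein builds up in the endoplasmic reticulum, kinases phosphorylate the initiation factor eIF2 alpha, and translation of the transcription factor ATF4 rises. ATF4 then acts at C/EBP-ATF response elements (CAREs) in front of genes for amino acid synthesis and uptake, of which ASNS is the textbook case. c-Myc, which acts through E-boxes, is also known to raise several of these enzymes in tumour cells.

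Because these 2 inputs are known to act through short DNA elements, the bases before the start sites of the genes are shown first. RefSeq promoter sequences on GRCh38.p14 held 6 of the 8 genes, with 10 start sites in all, and PYCR1 and GPT2 had no entry in the table used. The 250 bases before each start were searched on both strands for the CARE core TGATGNAA, the E-box CACGTG and the CCAAT box, letters that do not overlap one another. A CARE core was found before 1 of the start sites of ASNS and before that of GOT1. In the whole table, 3.14% of the 35116 promoter windows and 1061 of the 27305 genes had a match. An E-box was found before ALDH18A1 and before 1 start site of ASS1, against 6.34% of windows and 2110 of those genes. A CCAAT box was found before CTH, GOT1 and some of the start sites of CBS, against 32.0% of windows and 10102 of those genes. The search was chosen with values of these data known, and a match is a description of the letters and not a bound site.

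The first pair of sequences shows the CARE core matches in 30 bases each, with the match in capitals. The ASNS site is on the minus strand at chr7:97872458-97872487 and the match covers −68 to −61 from the start. The GOT1 site is on the minus strand at chr10:99430804-99430833, and its match is in the reverse orientation at −198 to −191 from the start. Both stretches overlap exons of longer transcripts in GENCODE 29.
ASNS: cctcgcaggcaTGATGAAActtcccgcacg
GOT1: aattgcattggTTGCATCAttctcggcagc

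The next pair shows the genes with an E-box, in capitals, up to the first annotated exon base. ALDH18A1 is on the minus strand, and its 250 bases at chr10:95656712-95656961 hold the E-box at −136 to −131 from the start. ASS1 is on the plus strand, and its 218 bases at chr9:130444711-130444928 hold the E-box at −71 to −66 from the second of its start sites.
ALDH18A1: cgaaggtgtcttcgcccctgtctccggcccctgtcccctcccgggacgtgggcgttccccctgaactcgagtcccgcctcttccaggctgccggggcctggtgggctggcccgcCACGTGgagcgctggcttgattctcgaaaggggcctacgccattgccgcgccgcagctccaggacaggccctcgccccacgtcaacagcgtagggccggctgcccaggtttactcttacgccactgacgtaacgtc
ASS1: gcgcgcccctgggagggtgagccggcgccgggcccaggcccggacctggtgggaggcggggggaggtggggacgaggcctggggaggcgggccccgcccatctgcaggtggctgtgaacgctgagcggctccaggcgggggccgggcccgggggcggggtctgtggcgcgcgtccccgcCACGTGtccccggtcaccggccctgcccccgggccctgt

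CTH, the weakest expressed of the 8 genes, is shown as one with neither a CARE core nor an E-box in this window. The 200 bases are on the plus strand at chr1:70411018-70411217, with the CCAAT box in capitals.
CTH: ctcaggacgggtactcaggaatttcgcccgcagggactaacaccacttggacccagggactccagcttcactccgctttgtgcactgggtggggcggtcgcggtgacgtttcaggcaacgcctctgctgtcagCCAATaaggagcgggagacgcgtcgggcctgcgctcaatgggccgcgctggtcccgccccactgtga

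**Figure D1:**
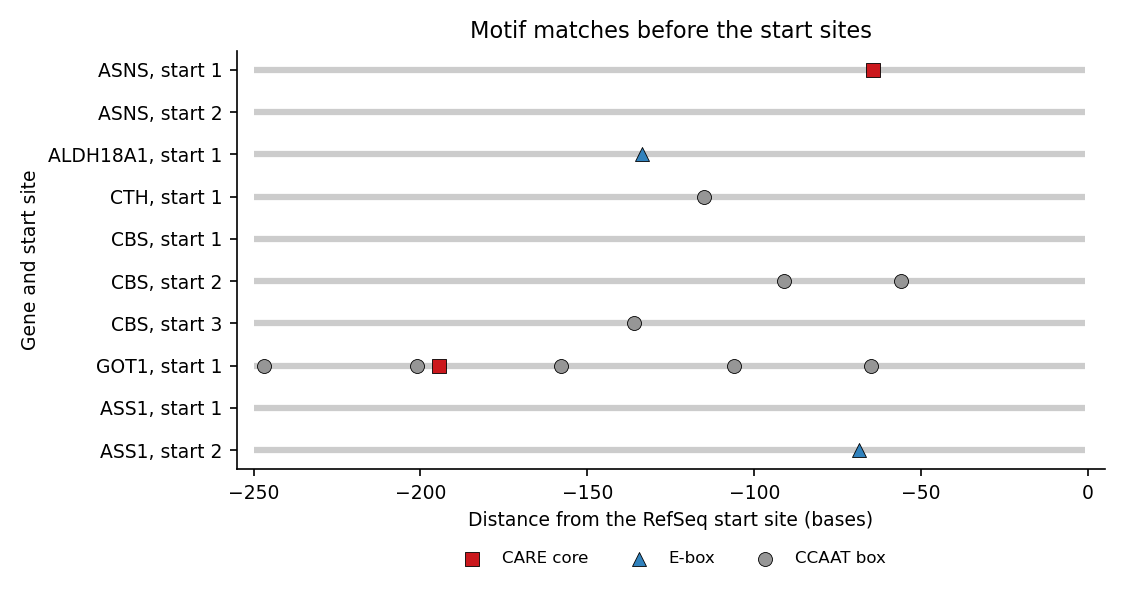
Matches of the CARE core, the E-box and the CCAAT box in the 250 bases before the 10 RefSeq start sites of 6 genes, by distance from the start in bases (grey lines are the windows searched, symbols the matches). The CARE core stands before 1 start of ASNS and before GOT1, and GOT1 also has 5 CCAAT boxes.

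DDX52 itself was 4.88 TPM in the 22RV1 control, 1.2 TPM in its knockdown, 9.2 TPM in the PC3 control and 2.07 TPM in its knockdown, so that it fell to 24.6% of the control in 22RV1 and to 22.5% in PC3. The cell lines carried their markers: KLK3 and KLK2 were listed at 0 in both PC3 libraries, and CAV1 was at most 0.45 TPM in 22RV1. The 8 luminal markers of 22RV1 summed to between 334 and 376 TPM in 22RV1 and between 42.4 and 48.8 TPM in PC3, where HOXB13 made up most of the sum. The 6 markers of PC3 summed to between 14.6 and 28.5 TPM in 22RV1 and between 903 and 998 TPM in PC3. Within PC3, VIM was 12.6 TPM in the control and 66.7 TPM in the knockdown, and S100A4 was 80.9 and 24.4 TPM, so the PC3 libraries differed in more than DDX52. Genes annotated as rRNA took 1.21% and 0.0872% of the 22RV1 libraries and 0.0923% and 3.13% of the PC3 libraries, shCON first. The part of these differences in the values below was not tested.

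In 22RV1 cells, 7 of the 8 enzymes were lower with shDDX52 and 1 was higher, and ASNS was the only one at least 2-fold lower. In PC3 cells, 3 were lower and 5 higher, and none reached 2-fold. Changes are given as the log2 ratio, log2((TPM shDDX52 + 1) / (TPM shCON + 1)), which understates the change of genes at low TPM. The median log2 ratio of the 8 genes was −0.38 in 22RV1 and 0.035 in PC3. Among all genes tested, which had 1 TPM or more in at least 1 of the libraries compared, the median was −0.076 in 22RV1 and −0.036 in PC3. There, 58.8% of 14438 genes were lower by any amount in 22RV1 and 53.5% of 14262 in PC3, and 2.86% and 3.44% were at least 2-fold lower. Higher by any amount were 40.9% in 22RV1 and 46.3% in PC3, and at least 2-fold higher 2.24% and 2.86%. Since the genes were chosen with these results known, nothing is read from the counts beside those shares.

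**Figure D2:**
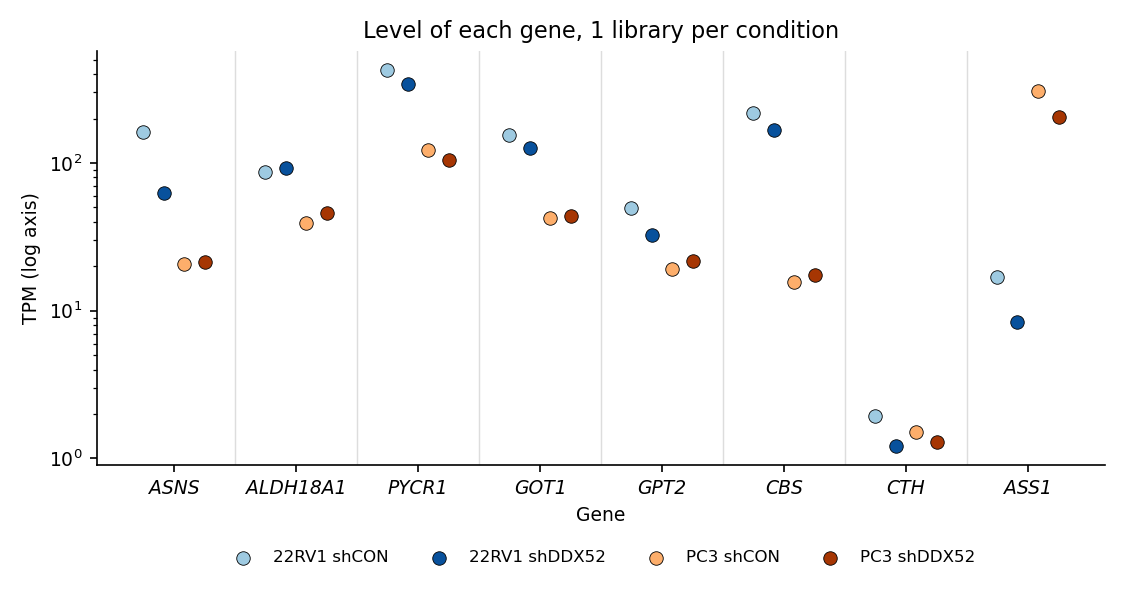
Level of the 8 genes in TPM (log axis), 1 point per library, in 22RV1 (blue) and PC3 (orange), pale for shCON and dark for shDDX52. ASNS drops from 161 to 62.35 TPM in 22RV1 and lies at 20.9 and 21.5 TPM in PC3, and between the control libraries ASS1 is the one gene that stands higher in PC3.

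ASNS makes asparagine from aspartate with glutamine as the nitrogen donor. The gene (ENSG00000070669) is encoded by the minus strand of chromosome 7, between 97852118 and 97872542 in GENCODE 29 on GRCh38, with the CARE core printed above before 1 of its start sites. It was 161 TPM in the 22RV1 control, 62.35 TPM in its knockdown, 20.9 TPM in the PC3 control and 21.5 TPM in its knockdown. The 22RV1 control was thus the highest library, the knockdown lay between it and the PC3 pair, and the PC3 libraries were close together on the deposited scale. In 22RV1 the level fell to 38.7% of the control, a log2 ratio of −1.36, and 1.30% of the genes tested had a lower log2 ratio. In PC3 the log2 ratio was 0.039, or 0.16 with TPM rescaled to nuclear protein-coding genes. In 22RV1 shCON, ASNS held place 947 among all genes by TPM, and in 22RV1 shDDX52 place 2125. Pseudogenes of ASNS summed to at most 0.08 TPM in any library, so little signal was listed at these copies.

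Asparagine is split again to aspartate by asparaginases, of which ASRGL1 was measured with ASNS as the opposing step. ASRGL1 was 23.1 TPM in the 22RV1 control and 31.1 TPM in the 22RV1 knockdown, and 20.4 and 19.1 TPM in PC3. It was thus higher in the 22RV1 library in which ASNS was lower. ASNS made up 87.5% of the summed TPM of the pair in 22RV1 shCON and 66.7% in 22RV1 shDDX52. In PC3 the share was 50.6% with shCON and 53.0% with shDDX52. Such a share within a library does not depend on how the library was scaled. A second asparaginase, ASPG, was at most 0.23 TPM in any library.

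Proline is made from glutamate in a pair of steps. ALDH18A1 (delta-1-pyrroline-5-carboxylate synthase, ENSG00000059573, chromosome 10 from 95605929 to 95656706, minus strand) opens the route in mitochondria. It was 87.3 TPM in the 22RV1 control and 92.8 TPM in the 22RV1 knockdown, and 39.4 and 45.9 TPM in PC3. It was the only one of the 8 enzymes with a log2 ratio above 0 in both cell lines, 0.087 in 22RV1 and 0.22 in PC3. Of all genes tested in both lines, 18.5% were higher in both.

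PYCR1 (ENSG00000183010, chromosome 17 from 81932384 to 81942412, minus strand) reduces the product of ALDH18A1 to proline in mitochondria. It was the most abundant of the 8 mRNAs in both 22RV1 libraries. Its level was 429 TPM in the 22RV1 control, 342 TPM in its knockdown, 122 TPM in the PC3 control and 104 TPM in its knockdown. Both knockdown libraries lay below their control, at 79.7% in 22RV1 and 85.3% in PC3, with log2 ratios of −0.33 and −0.23. The steps of 1 route therefore did not keep their ratio, since ALDH18A1 was higher and PYCR1 lower in each knockdown library.

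The cytosolic PYCR3 catalyses the same last step as PYCR1. It was 61.2 and 64.3 TPM in 22RV1 and 50.7 and 37.1 TPM in PC3, shCON first. In 22RV1 its log2 ratio was 0.069, on the other side of 0 from PYCR1, and in PC3 it was −0.44, below that of PYCR1.

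GOT1 and GPT2 exchange amino groups between glutamate and the skeletons of aspartate and alanine. GOT1 (cytosolic aspartate aminotransferase, ENSG00000120053, chromosome 10 from 99396870 to 99431569, minus strand) was 154 TPM in the 22RV1 control and 126 TPM in the 22RV1 knockdown. The PC3 libraries held 42.7 and 43.6 TPM. The knockdown library was at 81.6% of the control in 22RV1, a log2 ratio of −0.29, and its log2 ratio in PC3 was 0.031, or 0.16 with that rescaling.

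The mitochondrial isozyme GOT2 was 152 and 139 TPM in 22RV1 and 119 and 145 TPM in PC3, shCON first. GOT1 made up 50.4% of the summed TPM of GOT1 and GOT2 in the 22RV1 control, 47.5% in its knockdown, 26.4% in the PC3 control and 23.1% in its knockdown. The cytosolic share was thus lower in PC3 than in 22RV1 and a few percentage points lower with shDDX52 in each line.

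GPT2 (mitochondrial alanine aminotransferase, ENSG00000166123, chromosome 16 from 46884378 to 46931297, plus strand) makes alanine from pyruvate and glutamate, or runs in reverse. It was 49.6 TPM in the 22RV1 control and 32.5 TPM in the 22RV1 knockdown, and 19.1 and 21.6 TPM in PC3. Its log2 ratio in 22RV1 was −0.60, the lowest of the 8 genes after ASNS and ASS1 with a pseudocount of 1 but above that of CTH with 0.1, and it was on the other side of 0 in PC3, at 0.17. The cytosolic GPT was 15.2 and 7.76 TPM in 22RV1 and at most 0.44 TPM in PC3. In 22RV1 both alanine aminotransferases were thus lower with shDDX52, at 65.5% of the control for GPT2 and 51.2% for GPT.

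CBS and CTH form the transsulfuration route, in which CBS joins serine to homocysteine and CTH releases cysteine from the product. CBS (ENSG00000160200, chromosome 21 from 43053191 to 43076943, minus strand) was 216 TPM in the 22RV1 control and 168 TPM in the 22RV1 knockdown. In PC3 it was 15.6 and 17.5 TPM. Its log2 ratio was −0.36 in 22RV1 against 0.16 in PC3. A near-identical copy, CBSL (ENSG00000274276), was listed at 19.9 and 11.6 TPM in 22RV1 and at 1.38 and 0.39 TPM in PC3, and how shared reads were divided is not given in the sources used here. With the copy added, the log2 ratios of CBS were −0.39 and 0.073, so the direction in each line was the same.

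CTH (ENSG00000116761, chromosome 1 from 70411218 to 70439851, plus strand) was 1.93 TPM in the 22RV1 control, 1.22 TPM in its knockdown, 1.5 TPM in the PC3 control and 1.29 TPM in its knockdown. It was the lowest of the 8 genes in each library, and at such levels a log2 ratio rests largely on the pseudocount. Its log2 ratio in 22RV1 was −0.40 with a pseudocount of 1 and −0.62 with 0.1. Per unit of transcript length, CBS stood 112 times above CTH in 22RV1 shCON and 10.4 times above it in PC3 shCON. The uneven pair was thus far more uneven in 22RV1, through CBS and not through CTH.

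ASS1 joins citrulline to aspartate in arginine synthesis, and thus draws on the same aspartate as ASNS. The gene (ENSG00000130707, chromosome 9 from 130444929 to 130501274, plus strand) was 17.0 TPM in the 22RV1 control, 8.39 TPM in its knockdown, 307 TPM in the PC3 control and 205 TPM in its knockdown. Knockdown libraries were below their control in both lines, at 49.3% in 22RV1 and 66.8% in PC3. The log2 ratios were −0.94 and −0.58, the lowest of the 8 genes in PC3 and the second lowest in 22RV1. In 22RV1 the change passed 2-fold with a pseudocount of 0.1 and not with 1. The 14 listed ASS1 pseudogenes summed to at most 0.73 TPM in a library.

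ASL, which splits the product of ASS1 to arginine, was 90.5 and 88.8 TPM in 22RV1 and 66.9 and 56.9 TPM in PC3, shCON first. ASS1 made up 15.8% of the summed TPM of ASS1 and ASL in 22RV1 shCON and 8.63% in 22RV1 shDDX52. In PC3 it made up 82.1% and 78.3%. The balance of the pair thus differed far more between the cell lines than with the hairpin.

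**Figure D3:**
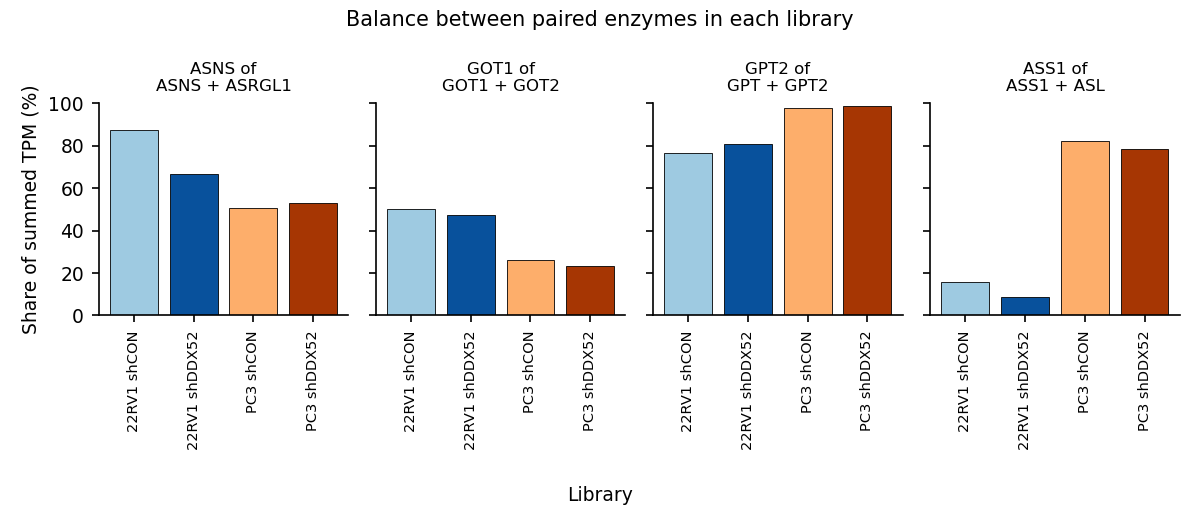
Share of the summed TPM, in percent, that ASNS, GOT1, GPT2 and ASS1 hold within their pair of enzymes, 1 bar per library. The ASNS share goes from 87.5% to 66.7% in 22RV1 with shDDX52, and the ASS1 share is 15.8% in 22RV1 shCON and 82.1% in PC3 shCON.

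Set side by side, the cell lines gave different values for the same genes. PYCR1, CTH and ASS1 were lower with shDDX52 in both lines, and ALDH18A1 was higher in both. ASNS, GPT2, CBS and GOT1 were lower in 22RV1 and above their control in PC3. For ASNS and GOT1 the PC3 difference was small, at 103% and 102% of the control, with log2 ratios of 0.039 and 0.031. Of the 12175 genes tested in both lines, 32.5% were lower in both and 27.4% were lower in 22RV1 and higher in PC3. The log2 ratio was lower in 22RV1 than in PC3 for each of the 8 genes, by 0.099 (PYCR1) to 1.40 (ASNS) with a median difference of −0.34 (22RV1 minus PC3). Over all genes tested in both, 53.5% had the lower log2 ratio in 22RV1. Of the 8, ASNS alone had a log2 ratio at least 1 lower in 22RV1 than in PC3. Among all genes tested in both, 548 (4.50%) were at least 1 lower in 22RV1, and 378 were at least 1 higher. With 1 library per condition, whether the lines differ could not be tested.

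**Figure D4:**
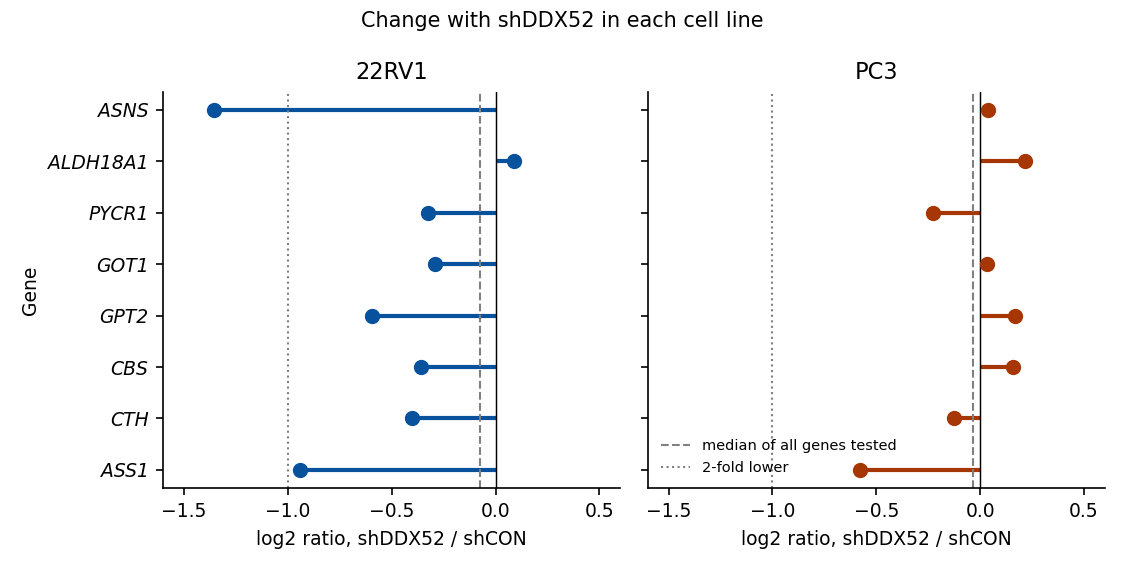
Log2 ratio of shDDX52 to shCON for the 8 genes in 22RV1 (left) and PC3 (right), with the median of all genes tested (dashed) and the 2-fold line (dotted). In 22RV1 all but ALDH18A1 lie left of the dashed line and ASNS passes the dotted line at −1.36, and in PC3 the values run from −0.58 to 0.22.

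The control libraries alone show how differently the cell lines were set before DDX52 was lowered. In PC3 shCON, 7 of the 8 enzymes were lower than in 22RV1 shCON, 6 of them at least 2-fold, and 1 was higher. Of the 15727 genes at 1 TPM or more in one or both control libraries, 52.3% were lower in PC3 and 47.6% higher, 21.3% were at least 2-fold lower in PC3 and 19.9% at least 2-fold higher. CBS was furthest down, at 7.19% of its 22RV1 level, followed by ASNS at 12.9%, GOT1 at 27.7% and PYCR1 at 28.5%. GPT2 and ALDH18A1 stood at 38.4% and 45.1%, and CTH at 77.7%. ASS1 was the exception, with a log2 ratio of 4.09 of PC3 over 22RV1. Whether such gaps exceed the spread between cultures of 1 line is unknown here.

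The order of the levels, which TPM allows because it corrects for length, followed from this. In 22RV1 shCON it ran PYCR1, CBS, ASNS, GOT1, ALDH18A1, GPT2, ASS1 and CTH from high to low, and in 22RV1 shDDX52 ASNS dropped from place 3 to place 5, below GOT1 and ALDH18A1. In PC3 shCON, ASS1 led, followed by PYCR1, GOT1, ALDH18A1, ASNS, GPT2, CBS and CTH. In PC3 shDDX52 the places changed only between neighbours, ALDH18A1 with GOT1 and GPT2 with ASNS. Together the 8 mRNAs took 1117 TPM in the 22RV1 control and 833 TPM in the 22RV1 knockdown. In PC3 they took 568 and 461 TPM, of which ASS1 was 54.0% and 44.5%.

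With a pseudocount of 1, no other gene of these pathways reached 2-fold with shDDX52 in either line. At least 2-fold lower and higher were 2.86% and 2.24% of all genes tested in 22RV1, and 3.44% and 2.86% in PC3. Nothing is read from that absence in a list of this size. Of 40 further enzymes and carriers listed, 29 reached 1 TPM in 22RV1, of which 17 were lower and 12 higher with shDDX52, and in PC3, 15 of 29 were lower and 14 higher. Of all genes tested, 58.8% were lower in 22RV1 and 53.5% in PC3. The median log2 ratio was −0.12 in 22RV1 and −0.087 in PC3, near those of all genes. Under 2 of the 3 other scalings run, 15 were lower and 14 higher in 22RV1, with medians of −0.068 and −0.046. The PC3 median turned to 0.036, with 11 lower and 18 higher, once TPM was rescaled to nuclear protein-coding genes.

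A few of these genes are named here, chosen after their values were seen. CHAC1, which degrades glutathione, was 6.16 TPM in the 22RV1 control and 2.61 TPM in the 22RV1 knockdown, which is 42.4% of the control in plain TPM and a log2 ratio of −0.99 with the pseudocount. In PC3 it was 6.15 and 7.92 TPM. GLS2, which releases glutamate from glutamine, was 7 and 10.3 TPM in 22RV1 and 4.53 and 7.89 TPM in PC3, higher with shDDX52 in both lines. GLUL, the enzyme that makes glutamine, was 41.6 and 36.2 TPM in 22RV1 and 34.7 and 50.8 TPM in PC3. SQOR, a mitochondrial enzyme of sulfide oxidation, was at most 1.21 TPM in 22RV1 and at least 82.5 TPM in PC3, a gap on the side of PC3 where CBS had one on the side of 22RV1.

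**Figure D5:**
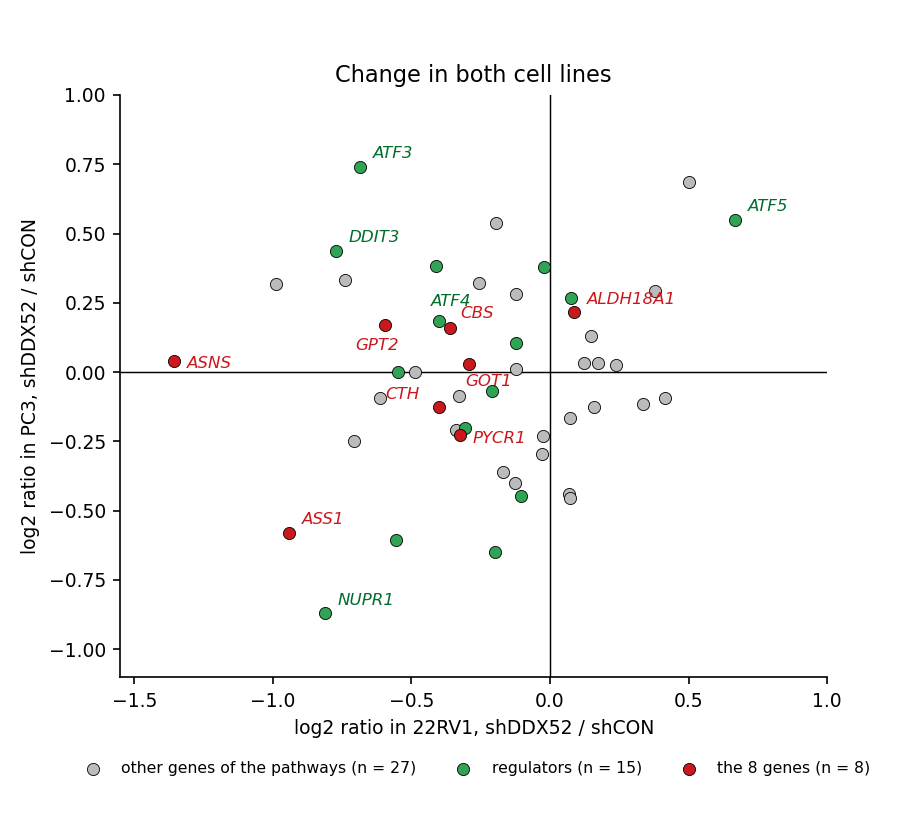
Log2 ratio of shDDX52 to shCON in 22RV1 (x axis) and in PC3 (y axis) for the 8 genes (red), 27 other pathway genes (grey) and 15 regulators (green) tested in both lines, 1 point per gene. ASNS lies furthest left, at −1.36 and 0.039, and ATF3 and DDIT3 lie at upper left.

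The mRNAs of regulators known to act on these genes were read in the same libraries. Of 15 regulators, 13 were lower and 2 higher with shDDX52 in 22RV1, and 6 were lower, 8 higher and 1 equal in PC3. Of all genes tested, 58.8% were lower in 22RV1 and 53.5% in PC3. Under 2 of the 3 other scalings run, 12 regulators were lower and 3 higher in 22RV1. No regulator reached 2-fold in either line. At least 2-fold lower and higher were 2.86% and 2.24% of all genes tested in 22RV1, and 3.44% and 2.86% in PC3. The median log2 ratio of the regulators was −0.31 in 22RV1 and 0.10 in PC3, and both signs held under those scalings. ATF4 activity is set largely by translation, so its mRNA gives no direct measure of the protein.

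ATF4 mRNA was 783 TPM in the 22RV1 control, 593 TPM in its knockdown, 345 TPM in the PC3 control and 392 TPM in its knockdown. It was thus lower with shDDX52 in 22RV1 and higher in PC3, with log2 ratios of −0.40 and 0.18. Between the control libraries, ATF4 was among the 7 of 15 regulators that were lower in PC3, and 8 were higher. Of all genes tested there, 52.3% were lower in PC3 and 47.6% higher. Whether ATF4 had a part in the enzyme levels was not tested. DDIT3 (CHOP), which is induced downstream of ATF4, was 44.9 and 25.9 TPM in 22RV1 and 14.3 and 19.8 TPM in PC3. ATF3, another stress-induced factor, was 16.9 and 10.1 TPM in 22RV1 and 11.0 and 19.1 TPM in PC3. Both thus had opposite directions in the cell lines, as GPT2 and CBS did by smaller amounts in PC3. ASNS and GOT1 hardly differed between the PC3 libraries on the deposited scale.

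NUPR1, CEBPB and ATF5 had the same direction in both cell lines. NUPR1, a stress-induced chromatin protein, was 247 and 140 TPM in 22RV1 and 39.0 and 20.9 TPM in PC3. CEBPB, a partner of ATF4 at CAREs, was 18.3 and 12.2 TPM in 22RV1 and 94.6 and 61.8 TPM in PC3. Both were thus lower with shDDX52 in each line, as ASS1 was. ATF5 was higher in each, at 30.7 and 49.4 TPM in 22RV1 and 58.0 and 85.4 TPM in PC3.

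TRIB3, a pseudokinase that restrains ATF4, had a log2 ratio of −0.31 in 22RV1, against −0.20 in PC3. CEBPG, which pairs with ATF4, was 15.6 and 10.3 TPM in 22RV1 and listed at 9.17 TPM in both PC3 libraries. Among the eIF2 alpha kinases, EIF2AK4 (GCN2), the sensor of uncharged tRNA, had log2 ratios of −0.21 and −0.069, the latter turning positive with nuclear protein-coding scaling. EIF2AK3 (PERK), the sensor of the endoplasmic reticulum, was at most 3.97 TPM in any library, with log2 ratios of −0.41 and 0.38. EIF2AK1 and EIF2AK2 lay between −0.12 and 0.38 in both lines. MYC had log2 ratios of −0.20 and −0.65, and NFE2L2, the oxidative stress factor, −0.10 and −0.45.

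The genes whose pattern over the 4 libraries was most like that of ASNS were found by the Euclidean distance of log2(TPM + 1) values, each gene centred on its own mean, among 7025 other genes with a symbol and at least 5 TPM in each library. With 4 points this likeness rests mostly on the gap between the cell lines. The nearest was UGDH, an enzyme of nucleotide sugar synthesis, at a distance of 0.38, with 137 and 74.5 TPM in 22RV1 and 19.6 and 18.6 TPM in PC3. Next were SLC43A1, a carrier of neutral amino acids, at 0.49 and PSAT1, an enzyme of serine synthesis that transfers the amino group of glutamate, at 0.53. PSAT1 was 98.1 and 58.4 TPM in 22RV1 and 16.3 and 20.7 TPM in PC3.

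The remaining 7 were GAS5, FKBP5, EPDR1, TSPYL2, GINS4, HERPUD1 and SMC1A, at distances of 0.55 to 0.72. Of these, FKBP5 and HERPUD1 were at least 2-fold lower in 22RV1, with log2 ratios of −1.22 and −1.09. HERPUD1 is a protein of endoplasmic reticulum-associated degradation. Of all genes tested, 2.86% fell that far in 22RV1. These genes were picked for likeness to ASNS, itself lower there, so such a fall follows in part from that choice. Among the other members, PYCR1 ranked 29 and GOT1 46 by this distance. GPT2 ranked 538, CBS 719 and ALDH18A1 892, and ASS1 ranked 7011 of 7025, as the gene with the opposite gap between the lines. CTH was below the level required.

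The 8 genes lie on 7 chromosomes, with ALDH18A1 and GOT1 both on chromosome 10. Their nearest expressed protein-coding neighbours on each side, 16 genes in all, gave no 2-fold difference in either line. In 22RV1, 2.86% of all genes tested passed 2-fold downward and 2.24% upward, and in PC3 3.44% and 2.86%. Such shares are too small for an absence among 16 genes to be read as a result. These neighbours had log2 ratios between −0.71 and 0.39 in 22RV1, and between −0.40 and 0.65 in PC3. The neighbours of ASNS, SDHAF3 and LMTK2, had log2 ratios of −0.31 and −0.17 in 22RV1, both smaller in size than that of ASNS. The longest coding transcripts of the 8 genes ran from 1904 to 4228 bases, against a median of 3273 for protein-coding genes tested in both lines, and their GC content from 43.3% (CTH) to 61.8% (PYCR1), against a median of 49.9%.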

How the data were processed

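Total RNA of 4 samples, 1 for each cell line and hairpin, was sequenced by a commercial provider. Reads were mapped through that provider's cloud service, and the authors deposited TPM per Ensembl gene in 1 table for each cell line. The submitters' processing notes name CASAVA, HISAT2 and hg19 without their roles. The quantification program and annotation release are not given in the sources used here. Of the 60671 identifiers, 42020 had a symbol in a table of gene names and 58453 are listed in GENCODE 29 on GRCh38. Gene positions and promoter coordinates therefore refer to GENCODE 29 and RefSeq on GRCh38 and not to the deposited values. TPM summed to between 984448 and 990860 in the libraries, and whole reads cannot be recovered from TPM.

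From the deposited TPM, log2 ratios with a pseudocount of 1 were computed for genes at 1 TPM or more in at least 1 of the libraries compared, and a 2-fold difference was counted as called. No test was run. A fit with the cell lines as pairs would leave 1 residual degree of freedom for a hairpin effect shared by both lines, and it was left out because the genes were chosen on this contrast. The 8 genes, the pathway and regulator lists, the cell line markers, the motifs and the alternatives were chosen with earlier results of these data known. Genes named are the 8 members, DDX52, their paralogs, pathway genes at 2-fold or more (there were none with a pseudocount of 1), the regulators, the cell line markers and the 10 genes nearest to ASNS. Some genes of these lists are counted but not reported by name here. Genes outside this rule are named as such, and the enzymes paired with members for shares, the neighbours, ASPG, SQOR, GLUL, GLS2 and CHAC1 were added after the values were seen. Alternatives covered the pseudocount, the scaling, centring, the filter on low values, leaving out ASS1 and CBS, which have copies, and adding CBSL to CBS. The log2 ratio and the distance to ASNS were checked on simulated data. The scripts ran in Python 3.11.15 with pandas 2.3.3, numpy 2.4.6 and matplotlib 3.10.9.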

Additional observations from a re-analysis of the deposited data

Results flagged for a closer look

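Several genes were lower with shDDX52 in 1 cell line and higher in the other. With 1 library per condition, none of these differences was tested. Opposite directions were common: of the 12175 genes tested in both lines, 3338 were lower in 22RV1 and higher in PC3, and 2600 the other way. The differences below are log2 ratios in 22RV1 minus log2 ratios in PC3. The median of the 8 enzymes differed by −0.42 between the lines (−0.38 and 0.035). Among the enzymes, the difference was −1.40 for ASNS, −0.76 for GPT2, −0.52 for CBS and −0.32 for GOT1, and among isozymes −0.41 for GOT2 and 0.51 for PYCR3. The PC3 log2 ratios of ASNS and GOT1 were small, at 0.039 and 0.031.

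Among the regulators it was −1.43 for ATF3, −1.21 for DDIT3, −0.79 for EIF2AK3, −0.58 for ATF4, −0.40 for EIF2AK2 and −0.23 for EIF2AK1. The value for EIF2AK2 in 22RV1 was close to 0 and changed sign when log2 ratios were centred. Among the genes nearest to ASNS the difference was −1.65 for HERPUD1, −1.33 for FKBP5, −1.13 for SLC43A1 and −1.07 for PSAT1. For GINS4, EPDR1 and SMC1A it was −1.07, −0.93 and −0.86. These genes were picked for likeness to ASNS, so a negative difference follows in part from that choice.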

How the results depend on the processing

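The 26 values examined were recomputed under 9 alternatives, which gave 146 values. Of these, 133 kept their direction and stayed within 0.1 on the log2 scale or within 1.5 times a count, 12 moved further, and 1 reversed. The log2 ratio of each of the 8 genes kept its sign in both lines under every alternative run for it. With a pseudocount of 0.1, the median of the 8 genes in 22RV1 was −0.49 and 2 genes, ASNS and ASS1, were at least 2-fold lower. With TPM rescaled to nuclear protein-coding genes, the median of all genes in PC3 went from −0.036 to 0.087, the median of the 8 genes to 0.16, the median of the other pathway genes reversed to 0.036, and the median difference between the lines was −0.46. Under that scaling 7 of the 8 genes moved in PC3, ASNS to 0.16, GOT1 to 0.16, PYCR1 to −0.099, ALDH18A1 to 0.34, GPT2 to 0.29, CBS to 0.28 and ASS1 to −0.45. With a pseudocount of 0.1, CTH in 22RV1 was −0.62. Leaving out ASS1 and CBS gave medians of −0.36 in 22RV1 and 0.035 in PC3. Relative to the median of all genes, the 8 genes in PC3 were at 0.071 with the deposited TPM and at 0.075 with that scaling. Summing CBS with CBSL was an alternative chosen after seeing the data. The nuclear protein-coding scaling divides TPM by the share of those genes in each library. That share was 85.0% and 83.7% in 22RV1 and 88.4% and 81.3% in PC3, shCON first. Mitochondrially encoded genes took 9.81% and 13.0% in 22RV1 and 8.10% and 10.3% in PC3. Why these shares differed was not tested. A fit pairing the shCON and shDDX52 libraries of each cell line was not run. Depth is unknown, so the precision of low values such as CTH cannot be given.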
